A study of Mus musculus with 7 samples.

Results

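Proser1 and 9 genes that lie upstream of it on chromosome 3 were followed in LSK cells, the bone marrow (BM) population without lineage markers that carries Sca1 and cKit and contains the hematopoietic stem cells and multipotent progenitors. The genes were Proser1, Gm5103, Gm38357, Gm37261, Elf2, Noct, Naa15, Gm9442, Gm37199 and Gm6209, which were 10 of the 48440 genes measured. They were chosen by symbol as genes within about 3 Mb upstream of Proser1, with the measured difference in normalized counts between the groups already in view, so that this difference is given for them as a description without a test. The list ended with Gm6209 at 2.86 Mb from Proser1, where distance runs between the nearest ends of 2 genes. The next gene out with enough reads to be tested was Slc7a11, a cystine transporter gene at 3.02 Mb, with 42.1 ± 21.4 normalized counts (SD, n = 4) in wild-type against 42.6 ± 11.1 (SD, n = 3) in PROSER1 KO, a log2 difference of 0.16.

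Lethally irradiated C57BL/6 recipients (9.5 Gy in 2 equal doses) received BM from wild-type or from PROSER1 KO donors, the KO being constitutive and endonuclease-mediated, and LSK cells were sorted from them at day 77. Both groups were therefore transplanted and irradiated alike, and no group had a further agent. Paired-end RNA sequencing gave 4 wild-type libraries and 3 libraries labelled PROSER1 KO, called KO-labelled here, and the labels call them biological replicates. The sources used here do not give which part of Proser1 was altered, how many mice stood behind a library, or whether cells left from the host were gated out of these chimeras. Values are normalized counts, the read pairs of a gene divided by 1 size factor per library.

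PROSER1 is a proline and serine rich protein that binds the TET dioxygenases, the enzymes that oxidize methylated cytosine, and it takes part in complexes with OGT and the DBHS proteins, called TOPD complexes. Its chromosome neighbourhood mixes protein-coding genes with transcripts that have no known protein. Such transcripts are annotated as long intergenic noncoding RNAs (lincRNAs), as processed pseudogenes (copies of a spliced message inserted into the genome) or in the TEC class, a provisional annotation class. TEC transcripts often lie in the introns of a larger gene, where reads of unspliced message also fall.

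The libraries held 33143619 to 45140743 read pairs on genes, and 3 read pairs, the limit that a count of 0 allows, came to 2.54 to 3.48 normalized counts, which covers counting error only. The 8 LSK markers (Ly6a, Kit, Cd34, Flt3, Slamf1, Procr, Mecom and Meis1) were all expressed and summed to 98980 to 108907 normalized counts in wild-type against 100298 to 101953 in the KO-labelled libraries. No list of 8 other cell types held a gene at 0 in all libraries or a gene called between the groups. Of these lists, the 4 plasma cell markers summed to 167412 to 418897 normalized counts in wild-type against 196477 to 293310 in the KO-labelled libraries. This was above the LSK sum in every library, and Jchain alone had means of 254274 and 216244. KO-labelled replicate 1 stood apart in T cell markers, with a sum of 1097 normalized counts against 153 to 335 in the other libraries. In bulk RNA, fewer cells that use a gene and less RNA per cell cannot be told apart.

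Proser1 itself (ENSMUSG00000049504) lies on the forward strand of chromosome 3 at 53463666 to 53481755 (GRCm38, GENCODE M21) and has 12 exon blocks. Its promoter and that of its neighbour Nhlrc3 are shown because the 2 genes start head to head, 334 bases apart on opposite strands in GENCODE M21, and because their counts in the KO-labelled libraries lay on opposite sides of wild-type. The Proser1 promoter is chr3:53463545-53463844 on the forward strand and the Nhlrc3 promoter is chr3:53463209-53463508 on the reverse strand (RefSeq, GRCm38.p6). Each runs from 250 bases before to 50 bases after the RefSeq start, which is not the GENCODE start used for the distance. Capitals mark matches, on either strand, to 6 motifs: the ETS core CCGGAA, the GC box GGGCGG, the CCAAT box, the TATA box TATAAA, the E-box CACGTG and the CRE TGACGTCA.

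Proser1 promoter: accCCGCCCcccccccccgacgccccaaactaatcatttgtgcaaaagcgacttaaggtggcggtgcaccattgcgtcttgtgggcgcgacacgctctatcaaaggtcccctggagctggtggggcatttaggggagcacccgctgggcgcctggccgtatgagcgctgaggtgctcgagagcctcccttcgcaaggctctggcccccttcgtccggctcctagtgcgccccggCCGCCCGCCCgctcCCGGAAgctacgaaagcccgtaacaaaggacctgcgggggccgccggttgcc

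Nhlrc3 promoter: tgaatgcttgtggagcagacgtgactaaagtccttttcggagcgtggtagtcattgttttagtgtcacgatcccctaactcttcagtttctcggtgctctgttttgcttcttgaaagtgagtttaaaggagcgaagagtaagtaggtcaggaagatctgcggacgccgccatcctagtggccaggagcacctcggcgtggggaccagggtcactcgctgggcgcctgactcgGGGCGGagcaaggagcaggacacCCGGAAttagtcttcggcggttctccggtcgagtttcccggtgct

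The Proser1 promoter was 67.3% G and C with 28 CG dinucleotides, against medians of 52.7% and 7 over 32851 mouse promoters of the same length. It held 3 GC boxes, 2 of them overlapping, and 1 ETS core. The Nhlrc3 promoter held 1 of each, with 21 CG dinucleotides. Over all promoters, 35.7% held a GC box and 14.9% an ETS core, while 37.4% held a CCAAT box, 13.6% a TATA box, 7.15% an E-box and 1.79% a CRE, none of which were in either promoter. A match is only a stretch of letters, and its use in LSK cells was not measured.

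Proser1 mRNA was not lower in the KO-labelled libraries. It had 2019.4, 2153, 2103 and 2077 normalized counts over wild-type replicates 1 to 4 and 2464, 2359 and 2338 over KO-labelled replicates 1 to 3. Each KO-labelled library lay above every wild-type library. The group means were 2088 ± 55.5 (SD, n = 4) for wild-type and 2387 ± 67.5 (SD, n = 3) for KO-labelled, a ratio of 1.14 and a log2 difference of 0.19. Counts summed over the whole gene do not show whether the message was intact, and all directions given here rest on the labels.

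Among the 10 genes, all of which passed the filter of a mean of at least 10 normalized counts, 3 lay below wild-type in every KO-labelled library, 1 lay above, and 6 overlapped. Over all 16251 genes tested, 4.83% lay below and 5.17% above without overlap. By limma, 2 of the 10 genes passed the threshold (adjusted p-value under 0.05 and fold change above 1.5), as did 0.258% of all genes tested, 0.135% in the lower and 0.123% in the higher direction. edgeR called 2 of the 10, beside 0.246% of the genes it tested, and DESeq2 called 3, beside 0.873%. These counts are no result about the genes, since they were chosen with this contrast known. The median log2 difference was -0.02 over the 10 genes and 0.00 over all genes tested. The 3 genes with low values were the noncoding transcripts Gm5103, Gm38357 and Gm37261. Elf2, Noct and Naa15, the protein-coding genes of the list in that region, had log2 differences between -0.03 and 0.05. Mgst2, the protein-coding gene around Gm37261 and not on the list, had a log2 difference of -2.21. Without KO-labelled replicate 1, the library with high T cell markers, the log2 differences were 0.17 for Proser1, -3.24 for Gm38357 and -3.98 for Gm37261, and that of Gm5103 cannot move, as it is at 0 in all libraries of this group.

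**Figure D1:**
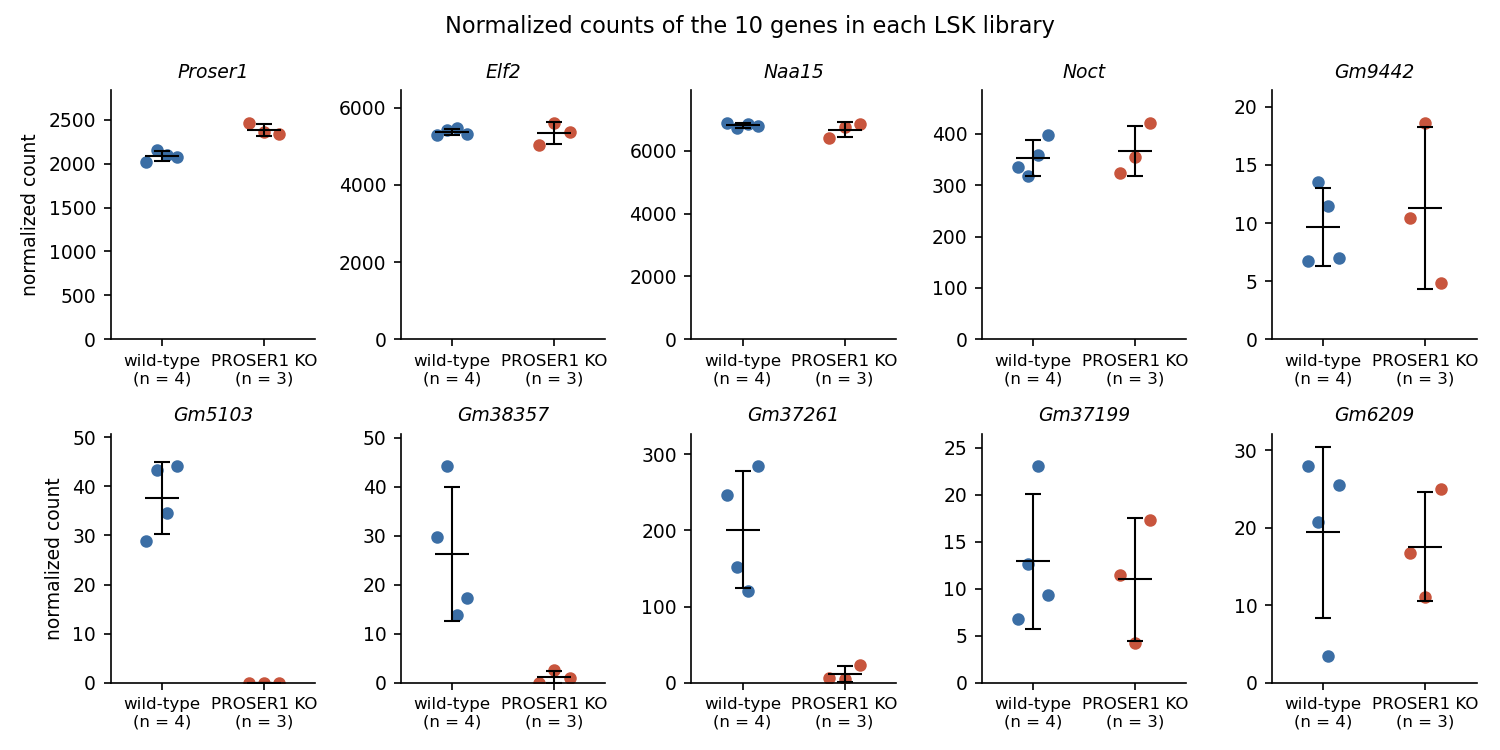
Normalized counts (vertical axes, each from 0) of the 10 genes in 4 wild-type and 3 PROSER1 KO libraries, with each point a library and the bars the mean and SD. Gm5103 sat at 0 in all 3 KO-labelled libraries, Gm38357 and Gm37261 sat below every wild-type library, and Proser1 sat above.

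The lincRNA Gm5103 (ENSMUSG00000102544) is a spliced transcript with 5 exon blocks on the forward strand at 51378024 to 51386324, 2.08 Mb upstream of Proser1. It lies in the gap between 2 protein-coding genes, 37.4 kb from the nearer end of Elf2 and 28.8 kb from that of Naa15. Its promoter, chr3:51377796-51378095 on the forward strand (RefSeq, GRCm38.p6), is shown because Gm5103 was the gene whose reads were missing from a whole group, and the capitals again mark motif matches.

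Gm5103 promoter: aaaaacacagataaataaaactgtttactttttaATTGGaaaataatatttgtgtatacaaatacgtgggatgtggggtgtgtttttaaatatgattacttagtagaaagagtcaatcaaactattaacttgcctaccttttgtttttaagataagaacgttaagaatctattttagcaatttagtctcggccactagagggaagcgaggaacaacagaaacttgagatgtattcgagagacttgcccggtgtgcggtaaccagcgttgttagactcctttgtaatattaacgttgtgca

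This promoter was 34.3% G and C, and 3.11% of mouse promoters had less. It held 9 CG dinucleotides and a single motif match, a CCAAT box read on the reverse strand. Over wild-type replicates 1 to 4, Gm5103 had 28.8, 43.3, 34.5 and 44.1 normalized counts, and over KO-labelled replicates 1 to 3 it had 0, 0 and 0. The groups did not overlap, and no read pair fell on Gm5103 in any KO-labelled library. The wild-type mean was 37.7 ± 7.30 (SD, n = 4), which was at least 12.03-fold higher than the largest limit that a count of 0 allows in 1 of those libraries. The wild-type libraries varied by 19.4% of their mean, where counting alone gives 16.6%.

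Of 14961 genes with at least 10 normalized counts in every wild-type library, Gm5103 was the 1 gene at 0 in every KO-labelled library. The opposite pattern was also seen in 1 gene of 15162, Gm7233 on chromosome 14, which had no read pair in any wild-type library and 41.7, 65.2 and 51.8 normalized counts over KO-labelled replicates 1 to 3. Gm5103 shares short stretches with many genes, such as 73 bases of its transcript that were 94.5% identical to a transcript of Pnn, but no other gene matched it at 90% identity or more over at least 100 bases.

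Gm38357 (ENSMUSG00000103313) is a TEC transcript of 1 exon block and 2464 bases on the forward strand at 51231917 to 51234380, 2.23 Mb upstream of Proser1. All of it lies inside Noct on the same strand and none of it overlaps a Noct exon, so that it is intronic to Noct. Gm37261 (ENSMUSG00000103527), also a TEC transcript of 1 exon block, has 1101 bases at 51672801 to 51673901, 1.79 Mb upstream of Proser1. It lies in the same way inside Mgst2, the gene of a microsomal glutathione transferase that can make leukotriene C4. The first 300 bases of each (GENCODE M21, GRCm38, forward strand) are shown because reads on these stretches belong to an annotated transcript and to an intron of the gene around it alike. That of Gm38357 is chr3:51231917-51232216 and that of Gm37261 is chr3:51672801-51673100, with no part marked.

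Gm38357 start: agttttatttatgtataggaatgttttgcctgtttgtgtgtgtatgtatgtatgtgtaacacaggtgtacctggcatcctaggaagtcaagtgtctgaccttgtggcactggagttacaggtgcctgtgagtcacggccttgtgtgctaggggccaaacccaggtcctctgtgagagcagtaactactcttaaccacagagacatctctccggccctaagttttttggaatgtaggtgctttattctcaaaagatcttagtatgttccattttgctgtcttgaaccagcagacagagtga

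Gm37261 start: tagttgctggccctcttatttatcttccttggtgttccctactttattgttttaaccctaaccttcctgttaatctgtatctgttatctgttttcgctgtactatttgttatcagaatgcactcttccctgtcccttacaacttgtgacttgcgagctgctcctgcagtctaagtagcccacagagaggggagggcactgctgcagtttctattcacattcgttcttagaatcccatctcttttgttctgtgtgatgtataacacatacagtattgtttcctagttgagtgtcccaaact

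Gm38357 had 29.8, 44.2, 13.8 and 17.4 normalized counts over wild-type replicates 1 to 4 and 0, 2.54 and 0.96 over KO-labelled replicates 1 to 3. Every KO-labelled library was below every wild-type library. These were 107 read pairs in all wild-type libraries and 4 in all KO-labelled libraries. The group means were 26.3 ± 13.8 (SD, n = 4) for wild-type and 1.17 ± 1.28 (SD, n = 3) for KO-labelled. A stretch of about 107 bases in Gm38357 matched 33 other genes at 90% identity or more, so that reads from that stretch cannot be placed with certainty.

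Noct codes for nocturnin, a phosphatase of the CCR4 family whose mRNA cycles over the day in many tissues. It had 336, 318, 359 and 399 normalized counts in wild-type against 324, 355 and 421 in the KO-labelled libraries, which overlapped. The group means were 353 ± 34.8 (SD, n = 4) for wild-type and 367 ± 49.7 (SD, n = 3) for KO-labelled, a log2 difference of 0.05. Gm38357 therefore came to 8.88%, 13.9%, 3.85% and 4.36% of the Noct count over wild-type replicates 1 to 4 and to 0%, 0.716% and 0.228% over KO-labelled replicates 1 to 3. The libraries of the transcript inside the intron were thus apart between the groups, while those of the gene around it were not.

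Gm37261 had the highest wild-type level of the 6 noncoding genes per kb of exon, with 246, 152, 121 and 284 normalized counts over wild-type replicates 1 to 4 and 6.26, 5.08 and 23.0 over KO-labelled replicates 1 to 3. The groups did not overlap, and KO-labelled replicate 3 was the highest of its group. The group means were 201 ± 76.9 (SD, n = 4) for wild-type and 11.5 ± 10.05 (SD, n = 3) for KO-labelled, a log2 difference of -4.22. The gene around it, Mgst2 (ENSMUSG00000074604, 51660360 to 51682677), had 1125, 736, 693 and 1147 normalized counts in wild-type against 290, 178 and 140 in the KO-labelled libraries. Mgst2 was lower by a log2 difference of -2.21 (limma standard error 0.26, adjusted p = 0.00859), and this call was lost with robust variance estimates (limma adjusted p = 0.0542), when no trend was fitted (0.0997) and when KO-labelled replicate 2 was left out (0.0593), over a range of 1.89e-07 to 0.0997 in all limma, edgeR and DESeq2 settings tried.

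In contrast to Noct and Gm38357, both of these overlapping genes were low in the KO-labelled libraries, by different amounts. Gm37261 came to 21.9%, 20.7%, 17.4% and 24.8% of the Mgst2 count over wild-type replicates 1 to 4, a mean of 21.2% ± 3.05 (SD, n = 4). In KO-labelled replicates 1 and 2 it came to 2.16% and 2.86%, whereas in replicate 3 it came to 16.4%, just below the wild-type libraries. KO-labelled replicate 3 had the lowest Mgst2 count and the highest Gm37261 count of its group.

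**Figure D2:**
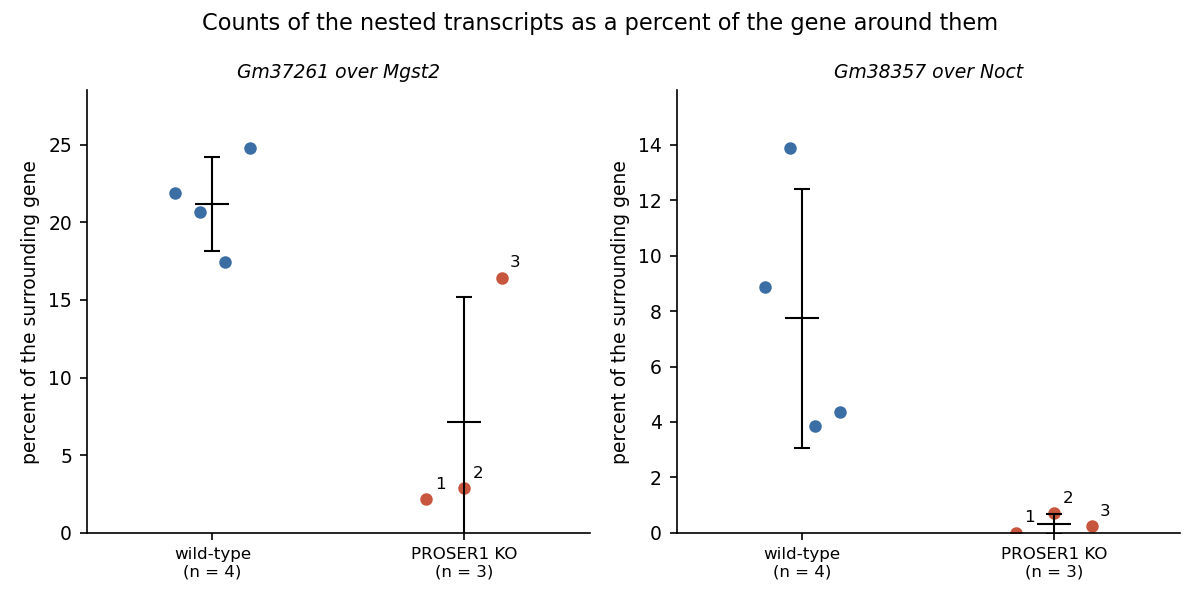
Counts of Gm37261 as a percent of Mgst2 and of Gm38357 as a percent of Noct (vertical axes, each from 0) in 4 wild-type and 3 PROSER1 KO libraries, with each point a library, the bars the mean and SD, and numbers marking the KO-labelled replicates. For Gm37261, KO-labelled replicate 3 sat at 16.4%, away from 2.16% and 2.86% in replicates 1 and 2.

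The wild-type libraries had the same order for Gm37261 and for the summed plasma cell markers. In the KO-labelled libraries, replicate 3 was highest for both. KO-labelled replicates 1 and 2 each had 6 read pairs on Gm37261, so that their order in normalized counts came from the size factors alone. Jchain, Sdc1, Xbp1 and Mzb1, genes of antibody-secreting cells, summed to 287720, 237009, 167412 and 418897 normalized counts over wild-type replicates 1 to 4 and to 216912, 196477 and 293310 over KO-labelled replicates 1 to 3. Within that list, Xbp1 broke the order of the sum in the KO-labelled libraries. Outside it, the LSK marker Ly6a, the B cell genes Cd79a and Ms4a1 and the erythroid gene Hbb-bs had the order of the sum in both groups. Mgst2 had this order in wild-type but not in the KO-labelled libraries. The ranges of the sum overlapped between the groups, and 0 of the 4 markers were called. Their part in the level of Gm37261 was not tested.

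Elf2 and Naa15, the other protein-coding genes of the list, were expressed more highly than Proser1 per kb of exon, and their libraries overlapped between the groups. Elf2 (51252720 to 51340663, reverse strand), an ETS family transcription factor of blood cells, had 5300, 5414, 5459 and 5323 normalized counts in wild-type against 5041, 5600 and 5367 in the KO-labelled libraries. The libraries overlapped, with means of 5374 ± 74.7 (SD, n = 4) and 5336 ± 281 (SD, n = 3). Naa15 (51415148 to 51476507, forward strand), the subunit that anchors the NatA N-terminal acetyltransferase to the ribosome, had 6888, 6713, 6845 and 6785 in wild-type against 6400, 6767 and 6842 in the KO-labelled libraries. These overlapped too, with means of 6808 ± 75.9 (SD, n = 4) and 6670 ± 237 (SD, n = 3). In both genes KO-labelled replicate 1 was the lowest of the 7 libraries.

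The other noncoding genes had low counts in both groups. The processed pseudogene Gm9442 (51402844 to 51403162) lies 16.5 kb from Gm5103 and had 6.73 to 13.5 normalized counts in wild-type against 4.80 to 18.6 in the KO-labelled libraries. As for Gm5103, no other gene matched Gm9442 at 90% identity or more over at least 100 bases. In a less strict search, its closest protein-coding transcript was that of Ptma, the prothymosin alpha gene, at 87.3% identity over 332 aligned bases. Whether Gm9442 shared reads with Ptma was not tested. Gm37199 (TEC, 50624347 to 50628411) had 6.73 to 23.0 in wild-type against 4.23 to 17.3 in the KO-labelled libraries. Gm6209 (processed transcript, 50516399 to 50607223) had 27.9, 20.7, 3.45 and 25.5 over wild-type replicates 1 to 4 and 16.7, 11.0 and 24.96 over KO-labelled replicates 1 to 3, with wild-type replicate 3 the lowest of all. In these 3 genes the groups overlapped, with log2 differences of 0.09, -0.26 and 0.10.

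Per kb of exon, wild-type levels ran from Elf2 with 562 normalized counts per kb (554 to 571 over the 4 libraries), Naa15 with 441 (435 to 446) and Proser1 with 342 (330.3 to 352), to Gm37261 with 182 (110 to 258). None of these 4 ranges overlapped its neighbour. Noct with 33.1 (29.9 to 37.4), Gm9442 with 30.3 (21.1 to 42.4) and Gm5103 with 26.2 (20.1 to 30.7) followed, and their ranges overlapped. Gm38357 with 10.7 (5.60 to 17.9), Gm6209 with 5.26 (0.936 to 7.57) and Gm37199 with 3.17 (1.66 to 5.66) were lowest, again with overlapping ranges. In the KO-labelled libraries, Gm37261 had 10.4 per kb (4.61 to 20.9), below the range of Noct, which had 34.4 (30.4 to 39.5).

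The spread among wild-type libraries separated the genes as well. It was 1.39% of the mean for Elf2, 1.11% for Naa15 and 2.66% for Proser1, close to the 1.38%, 1.23% and 2.22% that counting alone gives. In Gm37261 it was 38.3% where counting gives 7.18%, and in Gm38357 52.3% where counting gives 19.3%. Gm6209 with 56.9% against 22.8% and Gm37199 with 55.4% against 28.6% also varied by more than counting gives, while Gm9442 had 34.9% against 32.4%.

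The 3 transcripts with low values span 442 kb from the start of Gm38357 to the end of Gm37261, and other genes of this stretch were read from the same libraries. Of 17 other genes there, 7 passed the filter, and Mgst2 was the 1 gene called. The other 6 tested genes had log2 differences between -0.07 and 0.09 (lowest adjusted p = 0.869 from limma). Among these, 4930577N17Rik overlaps 371 exon bases of Elf2 on the opposite strand and had a log2 difference of 0.01. The libraries were made with a kit that keeps the strand, but the strand setting of the counting was not given in the sources used here, so that reads of this pair could be mixed. Of genes that overlap the members, Gm37399 and Gm24282 in Elf2, Gm37646 in Naa15, and 5830415G21Rik and Gm38237 in Gm6209 were too low to be tested.

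Within 3 Mb on both sides of Proser1, 126 further genes were in the table. Of these, 29 were tested and 2 (6.90%) were called, beside 0.258% of all genes tested. The 2 called genes were Mgst2, the gene around Gm37261, which was lower, and Postn on the downstream side, which was higher. The 29 genes had a median log2 difference of 0.03, with 17 above 0 and 12 below, beside a median of 0.00 over all genes tested. On chromosome 3 as a whole, 6 of 835 tested genes were called, and 4 of the 6 lay in this window, 2 of which were chosen here with the contrast known.

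**Figure D3:**
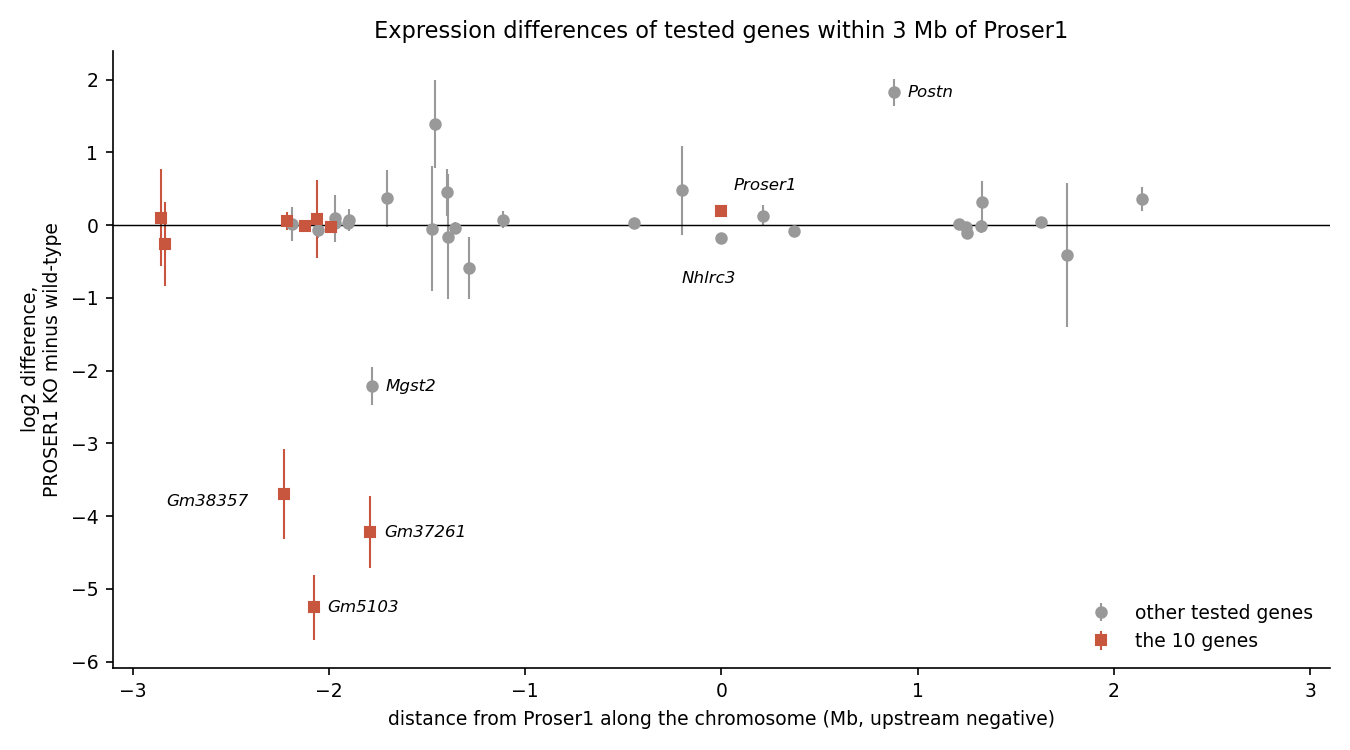
The log2 difference between the KO-labelled libraries and wild-type (vertical axis, bars are the limma standard error) against distance from Proser1 in Mb (horizontal axis, upstream negative) for tested genes within 3 Mb, with squares for the 10 genes and circles for the others. Gm5103, Gm38357, Gm37261 and Mgst2 lie between -2.21 and -5.25 at about 2 Mb upstream, amid genes near 0, and Postn lies at 1.83 downstream.

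The genes nearest to Proser1 did not show differences of this size. Nhlrc3, which starts head to head with Proser1, had 1428, 1331, 1315 and 1433 normalized counts in wild-type against 1298, 1128 and 1216 in the KO-labelled libraries. Every KO-labelled library was below every wild-type library, as in 4.83% of all genes tested, but the log2 difference of -0.18 did not pass the threshold (adjusted p = 0.417 from limma, n = 4 and 3). Next upstream, Lhfp at 202 kb had a log2 difference of 0.48, with 4.60 to 33.4 normalized counts in wild-type against 16.3 to 36.5 in the KO-labelled libraries. Cog6, a Golgi transport subunit gene at 446 kb, had a log2 difference of 0.03, and none of these 3 genes was called. Downstream, Gm6204 at 211 kb had 0.13 and Ufm1, the gene of a ubiquitin-like modifier at 372 kb, had -0.08, and neither was called.

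Postn, at 879 kb downstream, was the exception. This gene codes for periostin, a matrix protein of stromal cells, and it had 92.3, 86.5, 70.1 and 64.9 normalized counts in wild-type against 267, 245 and 328 in the KO-labelled libraries. The log2 difference was 1.83 (adjusted p = 0.00464 from limma). Stromal markers (Cxcl12, Lepr, Col1a1 and Cdh5) summed to 235, 79.3, 400 and 429 over wild-type replicates 1 to 4. Over KO-labelled replicates 1 to 3 they summed to 298, 272 and 704, so that the groups overlapped. The means in wild-type and KO-labelled were 88.1 and 174 for Cxcl12, 13.8 and 26.3 for Lepr and 141 and 182 for Cdh5. Cxcl12 had 30.8, 3.61, 209 and 109 in wild-type against 111, 53.3 and 357 in the KO-labelled libraries, with replicate 3 the highest. Col1a1 had means of 43.3 and 42.6, and 0 of the 4 markers were called. The part of stromal cells in the Postn difference was not tested.

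**Figure D4:**
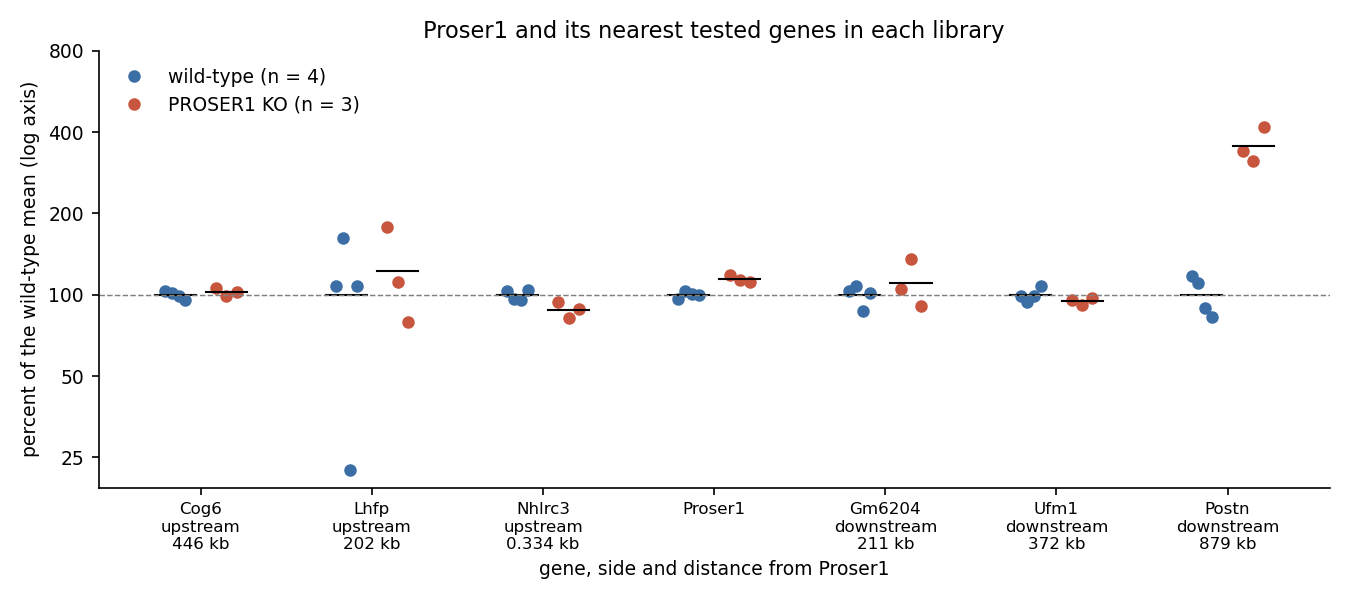
Proser1 and the 3 nearest tested genes on each side, as percent of the wild-type mean of each gene (vertical log axis), with each point a library and the lines the group means, ordered along the chromosome (horizontal axis). Proser1 stands at 114% and Nhlrc3 at 88.2% of the wild-type mean in the KO-labelled libraries, while Postn stands at 357%.

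The genes most like Proser1 over the 7 libraries were Dmd, Samd14, Serpina3g, Itgb6 and Lpin1, with Pearson correlations of 0.988, 0.984, 0.971, 0.969 and 0.969 on the log2 scale. None lies on chromosome 3. These correlations are a description over 7 libraries that share the difference between the groups, and all 5 genes were higher in the KO-labelled libraries, by log2 differences of 0.29, 0.57, 0.51, 1.75 and 0.27.

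The partners of the protein-coding genes were read from lists set by role. For PROSER1 these were the TOPD partners Ogt, Nono, Pspc1, Sfpq and the TET genes Tet1, Tet2 and Tet3. Beside 0.258% of all genes tested, 0 of these 7 were called. Their log2 differences ran from -0.11 for Pspc1 to 0.20 for Tet1, the methylcytosine dioxygenase with the lowest adjusted p of the list (0.407 from limma, and 1 of the 7 had an unadjusted p under 0.05). Among the NatA partners of Naa15, 0 of 4 tested genes were called, from -0.02 for Hypk, a regulator of the complex, to 0.07 for Naa10, its catalytic subunit (lowest adjusted p = 0.716 from limma, and 0 had an unadjusted p under 0.05). Naa11 had 0 normalized counts in all libraries.

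Of the other ELF factors, 0 of 2 tested genes were called, with log2 differences of 0.04 for Elf1 and 0.10 for Elf4 (lowest adjusted p = 0.605 from limma, and 0 had an unadjusted p under 0.05). Elf3, Elf5 and Ehf were too low to be tested. In the CCR4 family of Noct, 0 of 7 were called, from -0.03 for Angel2 to 0.15 for Cnot6, a deadenylase of the CCR4-NOT complex (lowest adjusted p = 0.337 from limma, and 1 had an unadjusted p under 0.05). edgeR and DESeq2 on the recovered read pairs also called 0 genes of these 4 lists. As limma called 0.258% of all genes tested, 0 calls in lists this short are no result about the partners. The unadjusted limma p-values under 0.05 are no result either, since 1582 of the 16251 genes tested had one.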

How the data were processed

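The 7 libraries (4 wild-type, 3 PROSER1 KO) held RNA of LSK cells from BM chimeras. Per the labels and the methods of the study, the authors trimmed reads with Trimmomatic, aligned them to mm10 (GRCm38.p6) with STAR, used featureCounts for the read pairs of each gene and normalized with DESeq2. The deposited values are a normalized signal, read pairs divided by 1 size factor per library, with no filter on low values. The header of the table names an older annotation release than the methods do, and the strand setting of the counting was not given in the sources used here. Whole read pairs were recovered from the step of each library (100% of values whole within 0.01). Depth was 33143619 to 45140743 read pairs on genes. No symbol was given for 685 genes, which took up to 0.135% of these and were tested too. 0 columns of other samples were left unused.

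The groups were tested on log2(normalized count + 1), a scale that understates changes of low genes, by limma 3.58.1 (R 4.3.3) with a trend of variance on mean. The 16251 genes whose mean reached 10 entered. Calls required p under 0.05 after Benjamini-Hochberg adjustment over all of them and a fold change above 1.5. edgeR 4.0.16 (quasi-likelihood) and DESeq2 1.42.0 on recovered read pairs were alternatives. All 3 procedures were tested on simulated data. Other alternatives were pseudocounts of 0.1 and 10, other filters, no trend, robust variances, TMM and quantile scaling, no fold change minimum, a replicate block, omission of single libraries, and windows of 1 and 10 Mb.

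Positions came from GENCODE M21, in which 48058 of 48440 gene IDs were found, and promoters from the RefSeq table, which held 6 of the 10 genes. Transcripts were compared with blastn 2.17.0. The genes, partner lists and marker lists were chosen with earlier results of these data known. Named genes were the 10 genes, genes overlapping them, the gene closest to the pseudogene, called genes and the 3 nearest tested genes on each side within 3 Mb of Proser1, the lowest and highest of each partner list, the 5 genes most like Proser1, and genes at 0 in 1 group. Mgarp and Ndufc1 were named for their place between Gm5103 and Naa15.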

Additional observations from a re-analysis of the deposited data

Results flagged for a closer look

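Among the 4 wild-type libraries of each gene reported here, the highest or lowest library was tested for a gap to the others that is large against the range of the group (Dixon's test), and 2 of 33 genes passed, where chance gives about 1 in 20. Naa50, a NatA partner of Naa15, had 7872 normalized counts in wild-type replicate 2 against 7426 to 7498 in the other wild-type libraries. Sfpq, a DBHS protein of the TOPD complexes, had 21245 in wild-type replicate 4 against 23747 to 24087. None of the 10 genes passed.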

How the results depend on the processing

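The main comparison called 42 genes, and 17 without the mean-variance trend, 80 with robust variances and 165 with DESeq2, where the cause of the difference was not tested. The study, which used DESeq2 with the same thresholds, also reported 165 genes. Leaving out 1 library gave 23 to 42, with 23 without PROSER1 KO replicate 2. Within 3 Mb of Proser1, 4 genes were called, 3 to 4 with 1 library left out, 2 without the trend (Gm5103 and Postn) and 1 in a window of 1 Mb, which holds fewer genes. Of the genes of the 4 partner lists together with Mgst2, the gene around Gm37261, 1 was called (Mgst2 itself), and 0 without the trend, with robust variances or without PROSER1 KO replicate 2, so that the range with 1 library left out was 0 to 1.

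The replicate numbers did not pair the libraries, as the correlations of same-numbered deviations were 0.02, 0.06 and -0.11. With the number as a replicate block, a fit in which wild-type replicate 4 has no partner, 35 genes were called, 3 of them within 3 Mb (Gm5103, Mgst2 and Postn), and 1 gene of the partner lists with Mgst2 (again Mgst2).

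Of 173 values of the 10 genes under other settings, 166 moved by less than 1 SD. The sign held in every setting for Proser1 (0.17 to 0.21), Gm5103, Gm38357, Gm37261 and Naa15, and changed in some for Elf2, Noct, Gm9442, Gm37199 and Gm6209. Gm5103 ran from -8.54 to -2.24, Gm38357 from -5.19 to -1.63 and Gm37261 from -4.84 to -3.32, the first 2 with their extremes at pseudocounts of 0.1 and 10, so that the size of these log2 values depends on the pseudocount. At this depth, counting alone gives a spread of 16.6% of the wild-type mean in Gm5103 and 32.4% in Gm9442.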
